A study of Mus musculus with 5 samples.

Results

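Phox2a, Hand2, Isl1, Dbh and Th are 5 genes of the autonomic neuron programme, taken by name from the 24411 genes of the table. Their transcripts were followed through single cells picked from blood in the heart of C57BL/6 mouse embryos of wild-type genotype, at E9.5 or E10 (days of embryonic development). The sorting gate was TER119-CD41-CD43-CD45-, which leaves out cells with surface markers of red cells, platelets or other blood cells. Transcripts were counted by modified STRT-seq, a method that tags every captured molecule with a UMI (unique molecular identifier). E9.5 was represented by 2 batches and E10 by 3, all of the same strain, genotype and gate. The 5 genes had been chosen because high values stood together in some of these cells, so their co-expression and their levels by cell class are given as a description, with no test.

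Autonomic neurons arise from neural crest cells that settle near the dorsal aorta or in the gut wall. The homeodomain factor Phox2a, the basic helix-loop-helix factor Hand2, the zinc finger factors Gata2 and Gata3 and the LIM-homeodomain factor Isl1 are part of a network there that turns on the genes of noradrenaline synthesis. Th encodes tyrosine hydroxylase, the rate-limiting enzyme, which makes L-DOPA from tyrosine, Ddc encodes the enzyme that makes dopamine from it, and Dbh encodes dopamine beta-hydroxylase, which makes noradrenaline. Hand2 also acts in limb, heart and branchial arch mesenchyme, and Isl1 in sensory and motor neurons and in heart progenitors.

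The 2 enzyme genes are shown here by the 250 bases before their start sites, because Dbh and Th were the pair whose levels followed each other most closely across cells. Capitals mark TAAT or its reverse complement ATTA, the core recognised by many homeodomain proteins, and TGACGTCA, the cyclic AMP response element. The bases are from RefSeq on the GRCm38.p6 assembly, written 5′ to 3′ on the gene's strand. The first lies at chr2:27165257-27165506 on the plus strand and the second at chr7:142899996-142900245 on the minus strand.
Dbh: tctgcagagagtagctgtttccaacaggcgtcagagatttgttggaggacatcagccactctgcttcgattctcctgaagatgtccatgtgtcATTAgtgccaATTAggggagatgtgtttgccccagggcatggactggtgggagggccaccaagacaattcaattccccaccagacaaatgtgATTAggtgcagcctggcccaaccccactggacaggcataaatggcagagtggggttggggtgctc
Th: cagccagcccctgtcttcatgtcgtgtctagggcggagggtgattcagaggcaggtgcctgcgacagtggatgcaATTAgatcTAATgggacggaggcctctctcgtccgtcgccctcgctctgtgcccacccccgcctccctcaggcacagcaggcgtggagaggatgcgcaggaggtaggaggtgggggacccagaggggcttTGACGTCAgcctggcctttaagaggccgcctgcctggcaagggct
The Dbh stretch held 3 matches to the homeodomain core, which began at positions -157, -147 and -65 from the start site. The Th stretch held 2, at -175 and -167, and 1 match to TGACGTCA at -45. Searched on both strands in the same window, the core matched 5 times upstream of Hand2, 2 times upstream of Isl1 and 0 times upstream of Phox2a, and 54.9% of 32851 RefSeq mouse promoters held it. TGACGTCA was present in 1.55% of these promoters and, among the 5 genes, upstream of Th alone. No match of the core overlapped TGACGTCA, and upstream of Hand2 the core matches at -175 and -173 overlapped each other. A match of letters is a description and not a binding site.

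All 5 genes lie on the same assembly as the build named for the counts (mm10, which is GRCm38). Phox2a occupies chr7:101818313-101822726 on the plus strand, and its last 95 bases overlap Inppl1 on the other strand. Hand2 occupies chr8:57320983-57324517 on the plus strand and is overlapped over 3251 bases by the antisense gene Hand2os1 in GENCODE. RefSeq places Hand2os1 at chr8:57304261-57320859, which ends 123 bases before Hand2, and the counts hold its gene ID as the row LOC102636514. Isl1 occupies chr13:116298270-116309688 on the minus strand, Dbh chr2:27165507-27183204 on the plus strand and Th chr7:142892779-142899995 on the minus strand. No strand setting is recorded for the counting, so reads of Phox2a and Inppl1, or of Hand2 and Hand2os1, cannot be told apart where they overlap. Inppl1 had a UMI in 82 of the 190 cells in which Phox2a had 0.

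Of the 480 columns, 294 cells had at least 1000 genes and 30000 UMIs, 26 and 46 in E9.5 replicates 1 and 2 and 87, 72 and 63 in E10 replicates 1, 2 and 3. They held 31294 to 1407021 UMIs each, with a median of 308924. The clustering left out the 5 genes and the genes of their pathway lists that were not also class markers. The mesenchymal markers Prrx1, Prrx2 and Twist1, which are also list genes, stayed in. By it 42 cells were neuron-like by 8 of 11 markers, 83 mesenchymal-like, 22 pluripotent or germ cell-like and 87 unnamed. Against the labelled gate, 46 cells were erythroid-like and 14 haematopoietic progenitor-like. All batches used the same 96 well numbers, 90 of these numbers held a kept cell in 2 or more batches, and no pair of kept columns was identical. A level counted as clear at 3 or more UMIs and at least 20 CPM (counts per 1e+06 UMIs of the cell). Of the 225 clear levels of the 5 genes, 24 in 15 cells were under 10% of the UMIs of that gene in the cell with the same well number of another batch, 12 of them in E10 replicate 2. Without these matches the clear cells numbered 20 in place of 21 for Phox2a, 77 in place of 86 for Hand2, 45 in place of 50 for Isl1, 39 in place of 46 for Dbh and 20 in place of 22 for Th. The counts below hold them unless stated, and their part in the results was not tested.

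Each of the 5 genes had most of its molecules in few cells. Phox2a, a homeodomain factor needed for noradrenergic neurons, was clear in 21 cells, 0 and 4 at E9.5 and 5, 2 and 10 at E10 in the order of the replicates, with a lowest clear level of 21.6 CPM, a median of 169 and a highest of 1084 CPM. Those 21 cells held 92.0% of all Phox2a UMIs. The highest Phox2a level outside them was 17.2 CPM. The lowest within them, at 21.6 CPM in E10 replicate 2, was a match to a same-numbered well, and the next stood at 71.3 CPM.

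Hand2 was the most widely found of the 5 genes. It was clear in 86 cells, 1 and 24 at E9.5 and 19, 27 and 15 at E10, with a median of 111 CPM and a highest level of 2619.9 CPM. Its clear cells ran down to the threshold without a gap: the 2 lowest stood at 20.8 and 21.3 CPM, and a cell with 31.7 CPM from 2 UMIs missed the UMI minimum. In E10 replicate 2 the 27 clear cells had a median of only 31.5 CPM, against 365 CPM in the 15 of E10 replicate 3 and 147 CPM in the 24 of E9.5 replicate 2. The 23 erythroid-like cells of E10 replicate 2 had Hand2 at a median of 15.5 CPM and up to 31.7 CPM, and 6 of them were clear. In the 11 erythroid-like cells of E10 replicate 3 the median was 3.33 CPM. With the clear level set at 50 CPM, 11 cells of E10 replicate 2 were left.

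Isl1 was clear in 50 cells, 2 and 6 at E9.5 and 15, 9 and 18 at E10, with a median of 180 CPM and a highest level of 2027 CPM. As with Hand2, its values passed through the threshold without a gap, from 20.1 and 25.2 CPM upwards. The 6 clear cells of E9.5 replicate 2 had a median of 372 CPM and those of E10 replicate 3 one of 337 CPM, while the medians in E10 replicates 1 and 2 were 131 and 74.8 CPM.

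Dbh was clear in 46 cells, 1 and 5 at E9.5 and 7, 7 and 26 at E10. Its median in them was 149 CPM and its highest level 9608 CPM. Its 5 richest cells held 62.8% of all Dbh UMIs, and most of its clear cells were in E10 replicate 3. Th was clear in 22 cells, 0 and 4 at E9.5 and 6, 4 and 8 at E10, with a lowest clear level of 29.6 CPM, a median of 168 and a highest of 3425 CPM. The highest Th level outside these cells was 19.7 CPM, and the 5 richest cells held 64.8% of Th UMIs.

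**Figure D1:**
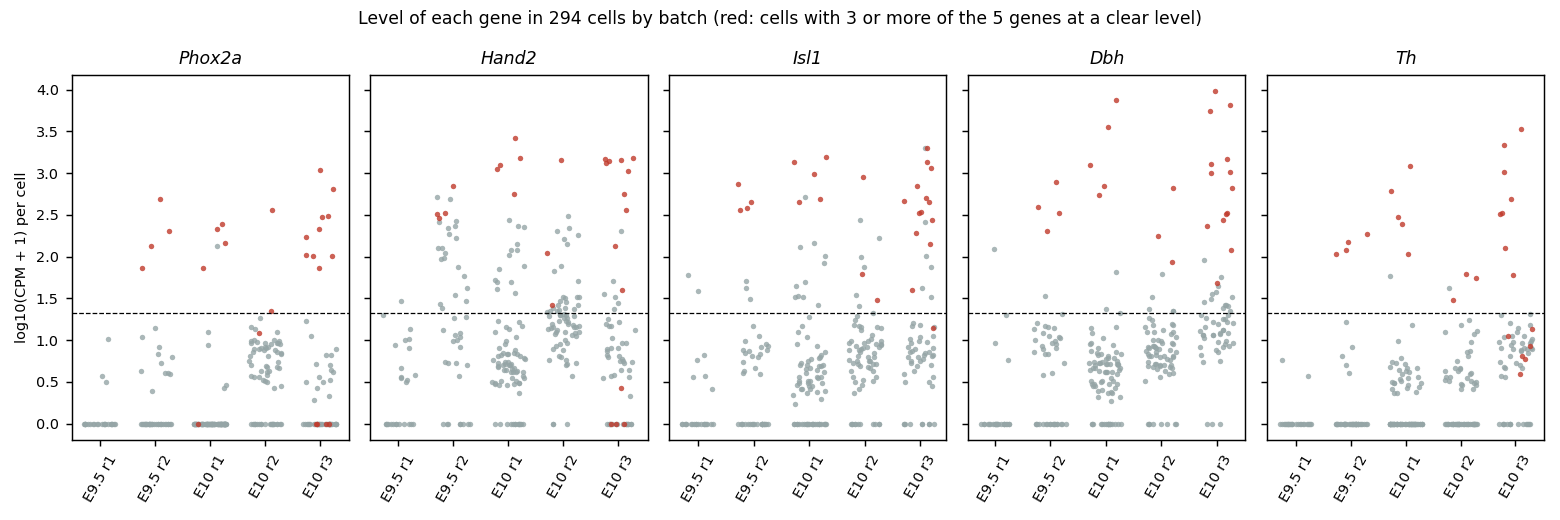
Each point is 1 of 294 cells, by batch (x axis), with the level of each gene on a log scale as log10(CPM + 1) (y axis); the dashed line marks 20 CPM and red points the 26 cells with 3 or more of the 5 genes at a clear level. E9.5 replicate 1 has no red point, and E10 replicate 3 has 14.

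Low counts of these genes were widespread below the clear level. In the 46 erythroid-like cells, a class in which these genes are not known to act, Dbh had a UMI in 91.3% of cells with a median of 6.70 CPM, Hand2 in 87.0% with 9.55 CPM, Isl1 in 76.1%, and Phox2a and Th in 56.5% each, at a median depth of 371308 UMIs per cell. In neuron-like cells, at a median depth of 277546 UMIs, the shares with a UMI were 88.1% for Dbh, 76.2% for Hand2, 90.5% for Isl1, 52.4% for Phox2a and 71.4% for Th. A UMI alone therefore did not separate the classes for Dbh, Hand2 and Phox2a at full depth. With every cell thinned to 30000 UMIs, which left out no cell, the shares in neuron-like cells were 64.3% for Dbh, 61.9% for Hand2, 71.4% for Isl1, and 47.6% for both Phox2a and Th. In erythroid-like cells they were 19.6% for Dbh and Hand2, 15.2% for Isl1, 2.17% for Phox2a and 6.52% for Th. The low Dbh level also differed by batch, with a median of 13.3 CPM in the 11 erythroid-like cells of E10 replicate 3 and 5.50 CPM in the 23 of E10 replicate 2.

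High levels of the 5 genes met in the same cells. Of the 294 cells, 169 had none of the 5 at a clear level, 86 had 1, 13 had 2, 5 had 3, 7 had 4 and 14 had all 5. The 26 cells with 3 or more made up 8.84% of the cells (95% Clopper-Pearson interval 5.86 to 12.7%), and such intervals cover counting error only. By batch they were 0 of 26 and 4 of 46 cells at E9.5, and 5 of 87, 3 of 72 and 14 of 63 cells at E10. The share in E10 replicate 3, 22.2% (12.7 to 34.5%), was the highest of the batches, with an interval that overlapped that of E9.5 replicate 2 (2.42 to 20.8%). Without E10 replicate 3, 12 such cells were left. Without the clear levels that matched a same-numbered well, 23 of the 26 cells stayed, with 1 in place of 3 in E10 replicate 2 and 13 in place of 14 in E10 replicate 3. The cells with all 5 then numbered 12 in place of 14.

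Most of the 26 cells were neuron-like. Of these 26, 23 lay in the neuron-like cluster, 1 among the pluripotent or germ cell-like cells of E10 replicate 1 and 2 in an unnamed cluster of E10 replicate 2. Across the 26, 8 of 11 neuron markers had a median of at least 20 CPM, and the summed level of the 11 ran from 288 to 28743 CPM with a median of 7464, against a median of 186 CPM in the other 268 cells. The 8 erythroid markers summed to a median of 8808 CPM in the 26 cells and 12012 CPM in the others, so globin transcripts were present in both sets. Their level in the 26 differed by batch. The globin gene Hbb-y ran from 5587 to 7064 CPM in E9.5 replicate 2 and from 64.2 to 172 CPM in E10 replicate 1. It ran from 14393 to 19175 CPM in E10 replicate 2 and from 2343 to 7415 CPM in E10 replicate 3. The cell in the pluripotent or germ cell-like cluster had all 5 genes, with Dbh at 1245 CPM and Hand2 at 569 CPM, beside Dppa5a, a pluripotency gene, at 2396 CPM. The 2 unnamed cells had Tubb3, a neuronal tubulin, at 3.60006 and 62.8 CPM, against a median of 1067 CPM over the 26. Of their 9 clear levels, 8 were under 10% of the UMIs in the same-numbered well of E10 replicate 3, where Dbh was 5620.1 and 6640.3 CPM against 86.4 and 177 CPM in the 2 cells.

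**Figure D2:**
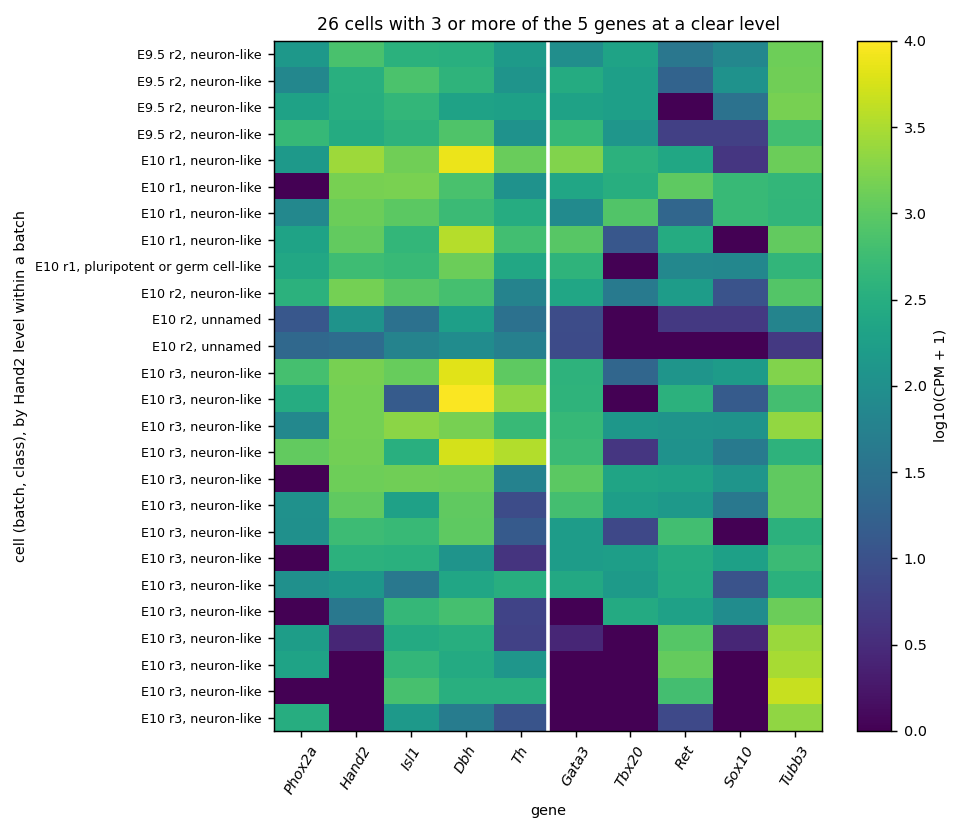
Rows are the 26 cells with 3 or more of the 5 genes at a clear level, labelled by batch and class and ordered by Hand2 within a batch; columns are the 5 genes (left of the white line) and 5 further genes, and colour gives log10(CPM + 1). The bottom 4 rows, all of E10 replicate 3, lack Hand2, Gata3 and Tbx20 and are high in Tubb3.

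The genes paired unequally. Of 22 cells with clear Th, 20 had clear Dbh, which is 90.9% of the Th cells and 43.5% of the 46 Dbh cells, and Pearson's r of log2(CPM + 10) was 0.84 over the 294 cells and 0.84 over the 42 neuron-like cells. Phox2a met Dbh in 20 of its 21 cells (r = 0.76), Isl1 in 19 (r = 0.61), Hand2 in 17 (r = 0.51) and Th in 16 (r = 0.75). Isl1 shared 26 cells with Dbh (r = 0.73), 19 with Th (r = 0.64) and 29 with Hand2 (r = 0.52). Hand2 shared 26 cells with Dbh (r = 0.62) and 18 with Th (r = 0.57), which is 30.2% and 20.9% of its 86 cells. Without the same-numbered-well matches 17 cells had both Dbh and Th, 21 both Hand2 and Dbh, 24 both Hand2 and Isl1 and 23 both Isl1 and Dbh. Cells of a batch share a library and the many cells at 0 weigh on these r, so they describe these cells only. Within the 26 cells alone, r was 0.68 for Dbh and Th, 0.69 for Hand2 and Dbh and -0.08 for Phox2a and Isl1.

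**Figure D3:**
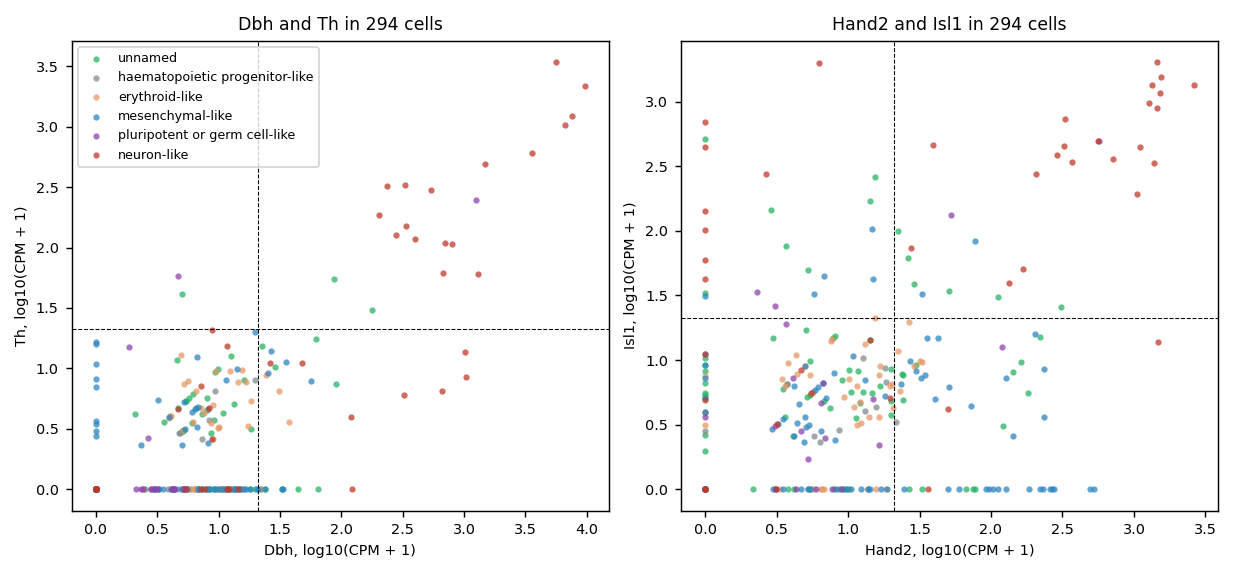
Each point is 1 of 294 cells, coloured by class, with log10(CPM + 1) of Dbh against Th (left) and of Hand2 against Isl1 (right); dashed lines mark 20 CPM. In the left panel 20 cells lie above both lines and 2 are above the Th line only, and in the right panel many cells are above the Hand2 line only.

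The cells with all 5 genes showed levels that differed widely. In E9.5 replicate 2 the 4 such cells had Dbh at 202, 335, 396 and 789.9 CPM and Th between 107 and 186 CPM. In E10 replicate 1 the 4 such cells had Dbh at 540, 1245, 3582 and 7601 CPM and Th between 248 and 1218 CPM. In E10 replicate 3 the 4 such cells had Dbh at 235, 1485, 5620.1 and 6640.3 CPM and Th between 325 and 3425 CPM. The 2 such cells of E10 replicate 2 had Dbh at 86.4 and 672 CPM and Th at 54.0 and 60.6 CPM. The Dbh values of 86.4 CPM at E10 and 396 CPM at E9.5 were matches to a same-numbered well. The other E10 cells ran from 235 CPM upwards, which overlaps the E9.5 range of 202 to 789.9 CPM. The richest Dbh cell of all, at 9608 CPM in E10 replicate 3, had Th at 2154, Hand2 at 1470.2 and Phox2a at 297 CPM but only 1 UMI of Isl1. This cell also had Slc6a2, the noradrenaline transporter, at 1612 CPM, and it was the only 1 of the 26 with a clear level of Slc6a2.

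Hand2 was missing from 4 of the 26 cells, all in E10 replicate 3. These 4 held 0, 0, 0 and 1 UMI of Hand2, with Isl1 at 141, 276, 448 and 692 CPM and Dbh at 46.9, 276, 320 and 330 CPM. Phox2a stood at 0, 169, 211 and 305 CPM, and Th was clear in 2 of them, at 126 and 330 CPM. Other genes set them apart from the 22 cells with clear Hand2, and these were picked after their values were seen. Gata2 and Gata3 each had 0 or 1 UMI per cell in the 4 and Tbx20, a T-box factor of visceral motor neurons and heart, had 0, while Gata3 was clear in 19 of the 22 cells and Tbx20 in 14. Neurod1, a proneural factor of cranial sensory ganglia, was at 232, 425, 442 and 2602 CPM in the 4 and at no more than 7.40 CPM in the 22. Ntrk2, the receptor of brain-derived neurotrophic factor, was at 0, 317, 449 and 471 CPM against at most 2.94 CPM. Not every sensory or receptor gene divided the cells in this way. Pou4f1, a sensory neuron factor, was clear in 1 of the 4 and 1 of the 22 cells. Ntrk3, a related receptor, was clear in 1 of the 4 and 3 of the 22, and the receptor gene Ret in 3 of the 4 and 16 of the 22. Tubb3 was at 2146 to 4629 CPM in the 4, against a median of 745 CPM in the 22.

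Some cells had a single gene of the 5 at a clear level. Hand2 was the only clear gene of the 5 in 52 cells, of which 28 were mesenchymal-like and 2 neuron-like, with a median of 68.2 CPM. In these 52 cells Prrx1, a homeobox gene of limb and head mesenchyme, was clear in 40, Twist1, a mesenchymal basic helix-loop-helix factor, in 37 and Gli3, a mediator of hedgehog signalling, in 33. These are 76.9%, 71.2% and 63.5% of the 52 cells, and the same genes were clear in 63.8%, 60.1% and 56.3% of the 268 cells with fewer than 3 of the 5, which include these 52. Gata4, a heart and gut mesoderm factor, was clear in 10, which is 19.2% of the 52 cells against 9.33% of the 268. Nkx2-5, a defining heart gene, was clear in 0 of the 52 and in 0.373% of the 268.

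Isl1 stood alone in 16 cells with a median of 66.8 CPM. Of these, 4 were neuron-like, and the richest, at 1992 CPM in E10 replicate 3, also held Pou4f1, a sensory neuron factor, at 1472 CPM. Prrx1 was clear in 10 of the 16 cells, which is 62.5% and close to its 63.8% in the 268 cells. Nkx2-5 was clear in 0 of the 16, and in 0.373% of the 268. Dbh stood alone in 15 cells, 10 of them in E10 replicate 3 and 4 of them erythroid-like, at a median of 25.2 CPM and a highest of 121 CPM. The erythroid-like cells of E10 replicate 3 had Dbh at 4.58 to 36.7 CPM. Some of these are among the 15 cells, so the range and the median are not independent. Th stood alone in 2 cells, at 57.0 and 40.6 CPM, and Phox2a in 1, at 133 CPM.

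Over the classes, the summed level of each gene was highest in the neuron-like cells. Phox2a stood there at 98.1 ± 73.6 CPM (mean ± SD over batches, n = 5), with 0.854 ± 1.01 CPM in mesenchymal-like cells (n = 4) and 2.71 ± 2.49 CPM in erythroid-like cells (n = 3). Th stood at 139 ± 149 CPM in neuron-like, 1.90 ± 2.21 CPM in mesenchymal-like and 3.02 ± 2.54 CPM in erythroid-like cells. Dbh stood at 593 ± 563 CPM, 6.47 ± 6.69 CPM and 9.02 ± 4.73 CPM in the same order. Isl1 stood at 365 ± 224 CPM, 6.21 ± 6.28 CPM and 5.67 ± 1.24 CPM. Hand2 stood at 412 ± 291 CPM in neuron-like cells, at 42.6 ± 51.4 CPM in mesenchymal-like cells and at 8.70 ± 7.10 CPM in erythroid-like cells. The mesenchymal-like and erythroid-like means rest on different sets of batches. For Phox2a, Th, Dbh and Isl1 these means lay within their spread of each other. E9.5 replicate 2 and E10 replicate 3 each held at least 3 cells of both classes. In these batches Hand2 stood at 118 and 21.1 CPM in mesenchymal-like cells and at 5.39 and 3.86 CPM in erythroid-like cells. It was clear in 38.6% of all mesenchymal-like and 13.0% of all erythroid-like cells.

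E9.5 replicate 1 stood apart in the neuron-like sums. Its 3 neuron-like cells held in all 1 UMI of Phox2a, 1 of Hand2, 8 of Isl1, 38 of Dbh and 0 of Th, with the Isl1 and the Dbh in 1 cell each. In the other 4 batches the neuron-like sums ran from 41.7 to 178 CPM for Phox2a, from 272 to 761 CPM for Hand2, from 323 to 561 CPM for Isl1, from 252 to 1208 CPM for Dbh and from 27.0 to 356 CPM for Th. For all 5 genes, E9.5 replicate 1 was the lowest of the batches.

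Within the neuron-like cells the 5 genes divided at a finer clustering into 25 neuron-like and 17 neural crest or glia-like cells. All 23 neuron-like cells with 3 or more of the genes lay in the first group. There the genes were clear in 18 (Phox2a), 20 (Hand2), 24 (Isl1), 23 (Dbh) and 17 (Th) of 25 cells, and in the second group in 0, 4, 5, 2 and 0 of 17. Ret, the receptor of glial-derived neurotrophic factor, was clear in 18 of the 25 and 9 of the 17 cells. Sox10, the crest and glia factor, was clear in 13 of 25 cells at a median of 31.1 CPM and in 17 of 17 at a median of 424 CPM.

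**Figure D4:**
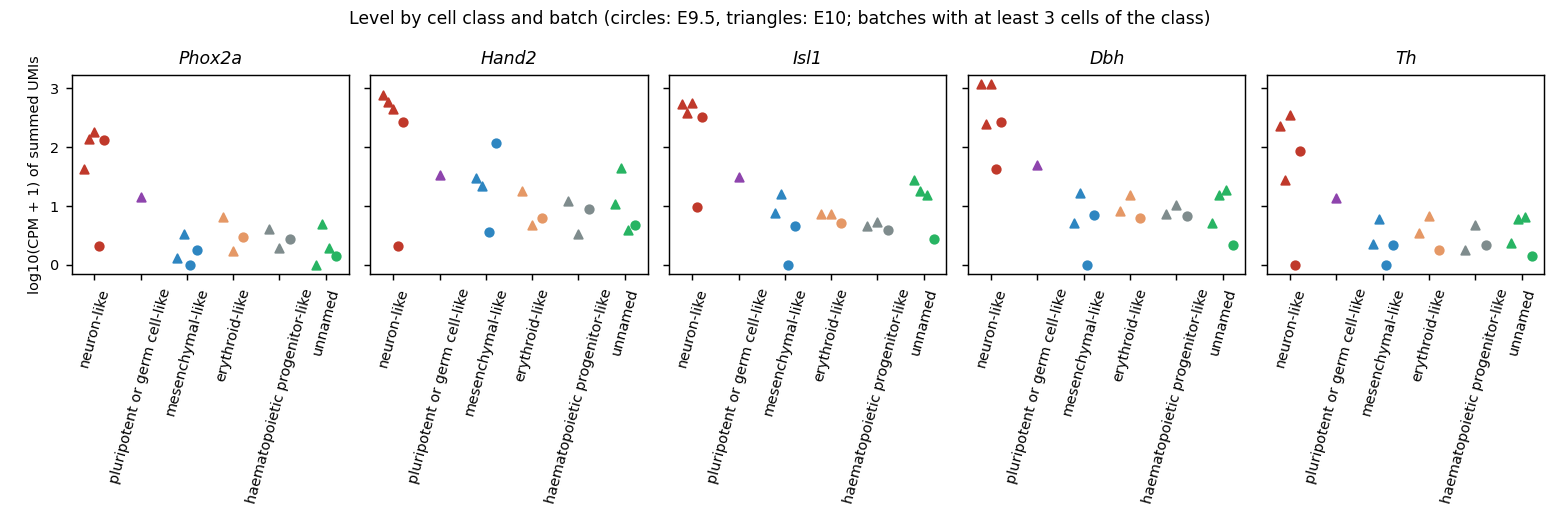
Points are batches with at least 3 cells of a class (circles E9.5, triangles E10), with the level of each gene in the summed UMIs of the class as log10(CPM + 1) (y axis) by cell class (x axis). In the batches other than E9.5 replicate 1, neuron-like cells are the highest class for all 5 genes, and Hand2 reaches 118 CPM in the mesenchymal-like cells of E9.5 replicate 2.

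Lists of related genes were read in the 26 cells with 3 or more of the 5 genes. Of 10 further autonomic regulators, 7 were clear in at least 13 of the 26 cells and none was at 0. Among those with the highest means were Sox11, a neuronal differentiation factor, at 1446 CPM and Insm1, a zinc finger factor of sympathoadrenal and endocrine cells, at 504 CPM. Sox11 was clear in 95.9% of the other cells too, and Insm1 in 8.58%.

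The route from tyrosine to stored noradrenaline was present in part. Of 17 genes of catecholamine synthesis, storage and uptake besides Dbh and Th, 7 were clear in at least 13 of the 26 cells. Chgb, a secretory granule protein, had a mean of 299 CPM and was clear in 13 cells against 0.746% of the others. Slc18a2, the vesicular monoamine transporter, had a mean of 280 CPM and was clear in 18 of 26 cells against 11.2% of the others. Cyb561, the cytochrome that supplies electrons to dopamine beta-hydroxylase in the granule, had a mean of 275 CPM and was clear in 20 cells against 2.24% of the others. Maoa, which breaks monoamines down, had a mean of 124 CPM and was clear in 15 cells against 27.2% of the others. Ddc was clear in 12 of the 26 cells against 18.7% of the others. Pnmt, which makes adrenaline, and Slc6a3, the dopamine transporter, had 0 UMIs in these 26 cells and were clear in 0% of the others.

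Genes of other transmitter and neuron types were read in the same cells. Among 5 cholinergic genes none was clear in 13 or more cells. Slc10a4, a vesicular protein, was clear in 8 cells with a mean of 41.7 CPM, Slc18a3, the vesicular acetylcholine transporter, in 6 with 27.6 CPM, Ache, acetylcholinesterase, in 3 with 22.3 CPM and Chat, choline acetyltransferase, in 2 with 2.43 CPM. Among 10 neurotrophic receptors Ret was clear in 19 cells with a mean of 267 CPM, against 4.85% of the other cells, Ngfr in 10 with 60.6 CPM, Gfra1 in 9 with 50.1 CPM and Ntrk2 in 3 with 47.7 CPM. Of 12 sensory neuron regulators 1, Eya1, was clear in at least 13 cells: it was clear in 17 at a mean of 133 CPM, against 29.5% of the other cells. Neurod1 had a mean of 143 CPM from 4 clear cells and Eya2 one of 80.1 CPM from 11.

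Among 10 motor neuron regulators, 5 were at 0 UMIs in the 26 cells, while Tbx2 was clear in 17 cells with a mean of 152 CPM, Tbx20 in 14 with 130.1 CPM and Isl2, a LIM-homeodomain relative of Isl1, in 4 with 62.2 CPM. Nkx6-2 was at 4 UMIs in all. Of 7 regulators of midbrain dopamine neurons, which also use Th, 3 were at 0 and none was clear in more than 5 cells. The 3 at 0 were clear in at most 1.87% of the other cells. The 4 highest were Nr4a2 at a mean of 11.04 CPM, Pitx3 at 1.14, Lmx1a at 1.13 and Foxa2 at 0.138 CPM.

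Partners of Hand2 and Isl1 in other tissues were read in the same way. Of 11 heart regulators 5 were at 0, and the 4 highest were Mef2c at a mean of 16.7 CPM, Gata4 at 1.84, Gata6 at 1.64 and Fgf10 at 1.03 CPM. The 5 at 0 were clear in at most 1.87% of the other cells. Of 14 limb and arch genes 3 were at 0, and Prrx2 at 53.2 CPM, Gli3 at 31.6, Prrx1 at 26.1 and Grem1 at 20.4 CPM were the highest, where Prrx1 had a mean of 226 CPM in the other cells. Prrx2 was clear in 13 of the 26 cells and in 48.9% of the others. The 3 limb and arch genes at 0 were clear in at most 3.73% of the others. Of 6 cofactors of LIM-homeodomain proteins, 4 were clear in at least 13 cells: Ssbp3 at a mean of 288 CPM, Lmo4 at 125, Lmo1 at 107 and Ldb1, which was clear in 21 cells. Of these, Lmo1 was clear in 16.8% of the other cells and the remaining 3 in 77.6% or more.

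The genes whose levels followed the 5 most closely over the 294 cells, among 13962 genes, were mostly neuronal or granule genes. For Phox2a they were Cyb561 (r = 0.77), Myt1, a neuronal zinc finger factor (0.68), Chga, a granule protein (0.66), Chgb (0.66) and Elavl3, a neuronal RNA-binding protein (0.66). For Th they were Cyb561 (0.83), Chgb (0.83), Myt1 (0.76), Nfasc, an axonal adhesion protein (0.73), and Agtr2, an angiotensin receptor (0.73). For Dbh they were Nfasc (0.86), Myt1 (0.84), Cyb561 (0.82), Nefm, a neurofilament (0.79), and Ndufa4l2 (0.78). For Isl1 they were Elavl3 (0.79), Insm1 (0.76), Tubb3 (0.75), Miat (0.74) and the neurofilament Nefl (0.74). Hand2 was followed best by LOC102636514, the antisense neighbour Hand2os1 (0.74), then Nfasc (0.61), Ndufa4l2 (0.60), Dll3, a Notch ligand (0.59), and Gata3 (0.58). Of the 40 cells with clear LOC102636514, 36 had clear Hand2.

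The stages were compared over batches. The genes had been chosen from high values in cells of these same batches, so this contrast is not independent of that choice. Of the 26 cells with 3 or more of the genes, 14 were in E10 replicate 3, and 0 and 4 in the E9.5 replicates. No gene passed the test in the counts summed over all kept cells: edgeR's quasi-likelihood test called 0 of 14103 genes at an adjusted p under 0.05 (0.00% of genes tested), with 1119 at an unadjusted p under 0.05, and DESeq2 called 96. None of the 5 genes was called by either tool. Phox2a stood at 0.383 and 27.4 CPM in the E9.5 batches and at 6.27, 13.8 and 46.3 CPM in the E10 batches, scaled by TMM, and the groups overlapped. Hand2 stood at 3.06 and 97.8 CPM against 68.5, 68.0 and 121 CPM, Isl1 at 2.17 and 66.8 CPM against 49.0, 36.9 and 150.3 CPM, both with overlap.

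Dbh stood at 5.61 and 58.3 CPM at E9.5 and at 91.1, 27.6 and 316 CPM at E10, and Th at 0.255 and 17.7 CPM against 18.3, 5.35 and 94.7 CPM, again with overlap. The log2 difference of E10 minus E9.5 was 2.18 ± 1.21 (SE) for Dbh with an adjusted p of 0.638 in edgeR and 2.14 ± 1.58 for Th with an adjusted p of 0.705. For Isl1 it was 1.19 ± 1.19, for Hand2 0.77 ± 1.07 and for Phox2a 0.67 ± 1.38, with edgeR adjusted p from 0.788 to 0.917. Leaving out 1 batch turned the sign for Phox2a and Hand2: without E9.5 replicate 1 the difference was -0.32 for Phox2a and -0.20 for Hand2, and without E10 replicate 3 it was -0.47 for Phox2a. Isl1, Dbh and Th kept their sign with each batch left out in turn, with a lowest difference of 0.23 for Isl1, and of 0.89 for Dbh and 0.40 for Th without E10 replicate 3. Every batch is of 1 stage, so a batch effect and a stage effect cannot be told apart, and fewer neuron-like cells and less transcript per cell cannot be told apart in these sums. Neuron-like cells were 11.5% and 15.2% of the cells at E9.5 and 10.3%, 5.56% and 30.2% at E10.

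In the neuron-like cells alone, all 5 genes had higher means at E10, and none passed the test. At the finer clustering these cells were 0 neuron-like and 3 neural crest or glia-like in E9.5 replicate 1, and 5 and 2 in E9.5 replicate 2. At E10 they were 4 and 5, 1 and 3, and 15 and 4 in the order of the replicates. The part of this make-up in the stage values was not tested. The edgeR fit called 0 of 10174 genes (0.00% of genes tested), with 584 at an unadjusted p under 0.05, and DESeq2 called 35. Dbh stood at 43.2 and 276 CPM at E9.5 and at 1164, 268 and 1142 CPM at E10, a log2 difference of 2.42 ± 0.80 (SE) with an adjusted p of 0.860 in edgeR. Hand2 stood at 1.14 and 279 CPM at E9.5 and at 733, 613 and 429 CPM at E10, without overlap, and its log2 difference was 2.07 ± 1.14 with an adjusted p of 0.874 in edgeR. Isl1 stood at 9.10 and 331 CPM against 527, 409 and 535 CPM, also without overlap, with a difference of 1.52 ± 0.94 (edgeR adjusted p = 0.895). Of all 10174 genes tested, 13.6% had every E10 batch above both E9.5 batches, and 23.6% had no overlap in either direction.

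Th stood in these cells at 0 and 87.2 CPM at E9.5 and at 217, 28.8 and 339.99 CPM at E10, and Phox2a at 1.14 and 136 CPM against 40.2, 146 and 169.8 CPM, both with overlap. Their differences were 2.14 ± 1.30 and 0.77 ± 1.11, with adjusted p of 0.891 and 0.970 in edgeR. The filter on low counts decided the call for 3 of the 5 genes: with no filter edgeR called 66 genes, among them Hand2 (adjusted p = 0.0031), Dbh (6.95e-05) and Th (0.037). The share of all genes tested that these 66 make up is not reported here, so the 3 calls cannot be set beside it. E9.5 replicate 2, with 7 cells, carried most of the E9.5 level. Without it the differences were 8.97 for Hand2 and 5.75 for Isl1, against E9.5 counts of 1 and 8 UMIs in 3 cells. Without E9.5 replicate 1 the differences were 1.58 for Dbh, 1.11 for Th, 1.05 for Hand2, 0.53 for Isl1 and -0.23 for Phox2a.

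**Figure D5:**
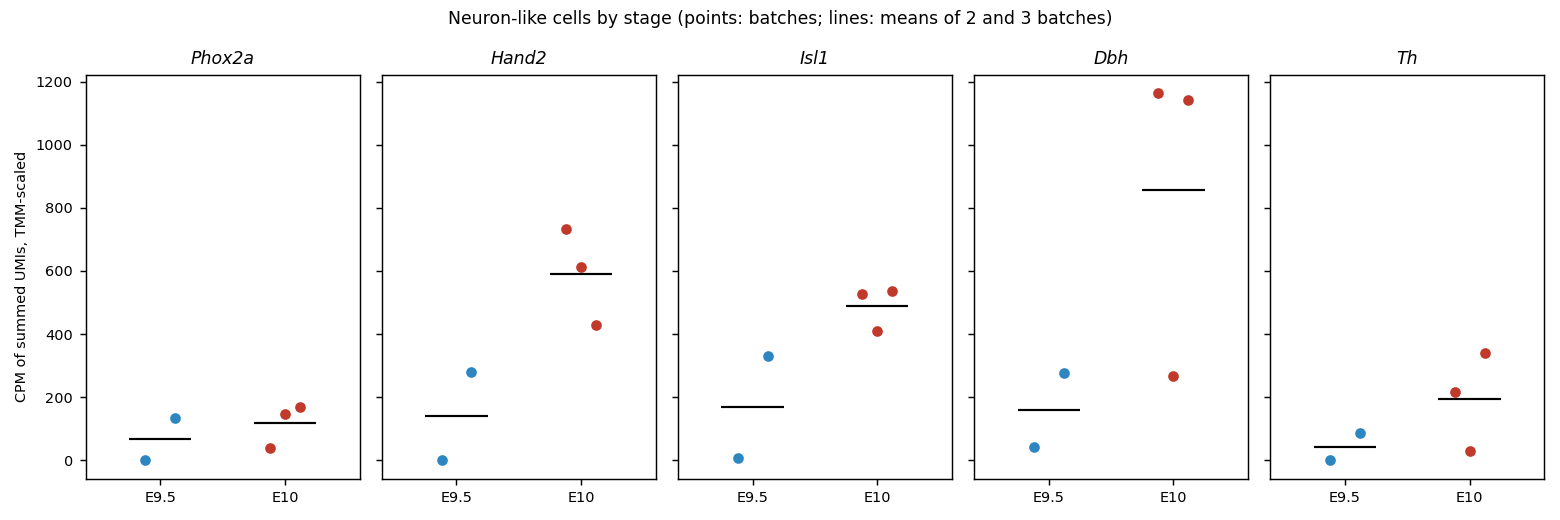
Points are batches, by stage (x axis), with the TMM-scaled CPM of each gene in the summed neuron-like cells (y axis, linear), and lines are means of 2 batches at E9.5 and 3 at E10. Hand2 and Isl1 do not overlap between stages, with E9.5 batches at 1.14 and 279 CPM and at 9.10 and 331 CPM, as was the case with E10 higher for 13.6% of all genes tested, and the stages overlap for the other 3 genes.

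None of the related genes in the lists passed either stage test in edgeR. The median log2 difference in all cells was 1.796 over the 10 sensory neuron regulators tested, 1.62 over 10 neurotrophic receptors and 1.31 over 4 cholinergic genes. It was 0.71 over 10 autonomic regulators and 0.68 over 15 catecholamine genes. The limb and arch genes had 0.57, the midbrain regulators 0.44, the LIM cofactors 0.27, the heart regulators -0.01 and the motor neuron regulators -0.03, beside 0.09 over all genes tested. The autonomic lists were thus not the highest. In neuron-like cells the median was 2.22 over 7 sensory neuron regulators, 0.89 over the autonomic regulators, 0.75 over 13 catecholamine genes, 0.74 over 2 cholinergic genes and 0.64 over 2 motor neuron regulators. It was 0.51 over 6 neurotrophic receptors, -0.02 over 4 LIM cofactors, -0.40 over 6 limb and arch genes, -0.45 over 2 midbrain regulators and -0.47 for the 1 heart regulator tested, beside 0.11 over all genes tested. Slc18a2 was at 5.84 ± 6.66 CPM (SD, n = 2) at E9.5 and 130.4 ± 116 CPM (n = 3) at E10 in neuron-like cells, with an adjusted p of 0.860 in edgeR. The p-values measure the spread between batches, and the labels do not say how many embryos each holds.

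Shares of cells with a clear level did not separate the stages either. Isl1 was clear in 7.69% and 13.0% of cells at E9.5 and in 17.2%, 12.5% and 28.6% at E10, with an exact two-sided permutation p of 0.3 over 10 splits, of which the smallest p is 0.1. Dbh was clear in 3.85% and 10.9% at E9.5 and in 8.05%, 9.72% and 41.3% at E10 (exact permutation p = 0.7). Hand2 was clear in 3.85% and 52.2% at E9.5 and in 21.8%, 37.5% and 23.8% at E10 (exact permutation p = 1). With the clear level set at 50 CPM the Hand2 shares were 0% and 41.3% at E9.5 and 17.2%, 15.3% and 15.9% at E10. Phox2a was clear in 0% and 8.70% at E9.5 and in 5.75%, 2.78% and 15.9% at E10, and Th in 0% and 8.70% against 6.90%, 5.56% and 12.7%, with exact permutation p of 0.7 and 0.5. The 0 of 26 cells of E9.5 replicate 1 allows a share of up to 11.5% when 3 counts are taken as the limit of a count of 0, and the exact 95% interval reaches 13.2%. Without the same-numbered-well matches Isl1 was clear in 0% and 13.0% at E9.5 and in 17.2%, 9.72% and 27.0% at E10. For each of the 5 genes the shares of both stages overlapped, and without E10 replicate 3 the Dbh means differed by 1.53 percentage points in place of 12.3.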

How the data were processed

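Per the labels' protocols, single cells were picked after sorting and libraries made by a modified STRT-seq protocol with 8-base well barcodes and UMIs. Per the submitters' processing notes, CASAVA 1.8, TopHat2 2.0.12, HTSeq and the mm10 build were used. The authors deposited whole-number UMI counts per gene and well, with 95 spike-in rows, which were dropped here. A column was assigned to a batch by the number in its name.

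The 5 genes and all lists were chosen with earlier results of these data known. Cells were scaled to counts per 10000 and clustered (scanpy 1.11.5, leidenalg 0.10.2, Python 3.11.15) from 2000 variable genes, 20 components, 15 neighbours and resolution 1.0, with seed 0. A cluster name needed 3 markers of that type, each at a median of 20 CPM or more and 2-fold above the remaining cells. No other type could have more markers among the 10 leading genes of the cluster. A shallow cluster with no marker among its leading genes also stayed unnamed. One unnamed cluster of 27 cells passed 5 mesenchymal markers but had 3 endothelial markers among its leading genes. No doublet caller was run, as cells were picked by hand. Names are rebuilt and can differ from the study's.

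Counts summed per batch, or per batch over at least 3 neuron-like cells, were tested in edgeR 4.0.16 (R 4.3.3; filterByExpr, TMM, quasi-likelihood test, Benjamini-Hochberg at 0.05 over all genes tested), with DESeq2 1.42.0 as second tool, after tests on simulated data. Shares were compared by exact permutation over the 5 batches and carry 95% Clopper-Pearson intervals. Named genes are the 5 genes, the 5 most similar genes of each among genes with a UMI in 10 cells, list genes past a stage test, and the 4 list genes highest in the 26 cells with 3 or more of the 5. Other genes named were picked after their values were seen. Some genes of these lists are counted in them but not reported here by name. Alternatives were no filter, lower depth, other thresholds, other resolutions and each batch left out. The comparison of same-numbered wells was added after seeing the data. Depth is 31294 to 1407021 UMIs per cell.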

Additional observations from a re-analysis of the deposited data

Results flagged for a closer look

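Clear levels also appeared in wells outside the 294 cells. Of 75 wells that held UMIs but missed the minimum of 1000 genes or 30000 UMIs, 6 had a clear level of at least 1 of the 5 genes, which flagged them as a signal in data that the comparisons do not use. Of these 6 wells, 4 were in E10 replicate 2 and 1 each in E10 replicates 1 and 3. For 10 of the 12 clear levels in these wells, a kept cell with the same well number in another batch held at least 10-fold more UMIs of that gene. In E10 replicate 2, well 84 had Hand2 at 1296 CPM and Dbh at 1167 CPM from 10 and 9 UMIs, beside 1051 and 1044 CPM from 425 and 422 UMIs in well 84 of E10 replicate 3. Well 91 had Hand2 at 1472 CPM and Isl1 at 841 CPM, beside 1332 and 1359 CPM in well 91 of E10 replicate 3. The cause of these matches was not tested. With 2 and 3 batches per stage, no group was large enough for a search for outlying batches.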

How the results depend on the processing

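No paired analysis was possible because the replicate numbers only follow the order of the samples and tie no E9.5 batch to an E10 batch. Of 191 alternative values over 23 results, 170 kept their direction and side of the threshold or stayed close to the reported value, 11 changed direction, 5 passed a threshold not passed before and 5 were counts that moved by over 1.5 times. In all cells, DESeq2 called 96 genes against 0 in edgeR, where leaving out single batches gave 0 in each case. In neuron-like cells, DESeq2 called 35 genes and edgeR without a filter 66, and edgeR called from 0 to 15 with single batches left out. Without a filter, the log2 differences of Hand2, Dbh and Th were 2.05, 2.38 and 2.10 and passed. With single batches left out, differences in all cells ran from -0.47 to 5.83 for Phox2a and from -0.20 to 4.80 for Hand2, and were above 0 for Isl1 (0.23 to 5.18), Dbh (0.89 to 4.69) and Th (0.40 to 7.24). In neuron-like cells they ran from -0.23 to 6.65 for Phox2a, 1.05 to 8.97 for Hand2, 0.53 to 5.75 for Isl1, 1.58 to 4.31 for Dbh and 1.11 to 12.1 for Th. With 1 batch left at E9.5, that batch is assumed to vary as the E10 batches do. The highest of each rest on E9.5 replicate 1 alone, whose neuron-like cells held 0 to 38 UMIs of a gene. Shares with single batches left out differed by -0.56 to 8.13 percentage points for Phox2a, -24.5 to 23.9 for Hand2, 4.50 to 12.5 for Isl1, 1.53 to 18.1 for Dbh and -0.31 to 8.38 for Th, and that of Hand2 by 6.50 points with 1 UMI in cells thinned to 30000 UMIs, against -0.29. The count of cells with 3 or more genes ran from 12 to 26 with single batches left out and was 23 at 50 CPM, 34 in thinned cells and 26 with cells from 5000 UMIs. The causes of these changes were not tested. Small sums limit the neuron-like fit, and E9.5 replicate 1 holds 3 such cells.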
